A study of Bos taurus with 6 samples.

Results

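TMEM160, MRPL57 and NCBP2AS2 are 3 nuclear genes for short proteins that are placed in mitochondria, and each was higher in bovine mammary epithelial cells after transfection with a miR-29c inhibitor than after transfection with an NC inhibitor. They are 3 of the 29154 genes listed in every library and were taken by their identifiers, ENSBTAG00000015579 for TMEM160, ENSBTAG00000003315 for MRPL57 and ENSBTAG00000048390 for NCBP2AS2. The files carry no symbols, and the symbols are those that the study's list of changed genes pairs with these identifiers. The 3 genes come from that list of genes higher with the inhibitor, so that the difference between groups was used to choose them. Their values are therefore given as a description, with no test.

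The cells are MAC-T, an established bovine mammary epithelial cell line, grown in the wells of a single plate. The miR-29c inhibitor group received 100 nM of an oligonucleotide that blocks miR-29c, and the NC inhibitor group, its negative control, received 100 nM of a control oligonucleotide. Below they are called the inhibitor and the control. All cells were harvested after 48 h and their mRNA was sequenced. Values are from 2 libraries per group, and the libraries with replicate number 3 were not analysed here. Nothing in the labels beyond the separate wells tells how far the replicates are independent cultures. The standard errors below therefore cover at most differences between wells of a cell line. They come from a fit that takes part of each gene's spread from all genes.

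MRPL57 is a protein of the large subunit of the mitochondrial ribosome, the machine that translates the few respiratory chain subunits encoded in mitochondrial DNA. All proteins of this ribosome are encoded in the nucleus, made in the cytosol and imported. TMEM160 is a small transmembrane protein of the inner mitochondrial membrane whose molecular role is little known. NCBP2AS2 was named as an antisense transcript because it lies head to head with NCBP2, the small subunit of the nuclear cap-binding complex, but it encodes a small protein of its own. MicroRNAs of the miR-29 family repress mRNAs by pairing with sites in the 3' UTR and are best known for collagen and DNA methyltransferase targets. Counts of mRNA show neither where a protein is located nor how much of it is made, so that the mitochondrial placement is background and was not measured.

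The oligonucleotides with which the study followed TMEM160 and miR-29c by qRT-PCR are shown because they mark the transcript with the largest difference of the 3 and the microRNA that was inhibited. They are written 5′ to 3′ and whole in lower case, since no part of them was singled out.
TMEM160 forward: tctgggcttgtgctgttggc
TMEM160 reverse: tgcgggaagggtcaggtttt
miR-29c forward: ggcgtgtagcaccatttgaa
Each is 20 bases long. The sequence counts analysed below do not depend on these primers.

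The libraries held between 14479278 and 16213226 counts on genes. Levels are given in CPM, counts scaled to a common library size, on library sizes scaled by edgeR's TMM method, whose factors lay between 0.992 and 1.01, so that the scaling moved no level by more than about 1 percent. Positive log2 fold changes mark a higher level with the inhibitor. They were estimated with their standard error (SE) by edgeR's quasi-likelihood fit over the 20300 genes with at least 1 count. Intervals given for single libraries cover counting error only.

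TMEM160 had 50 counts in control replicate 1 and 68 counts in control replicate 2. In the inhibitor libraries it had 224 counts in replicate 1 and 314 counts in replicate 2. These counts correspond to 3.43 and 4.19 CPM in the control libraries and to 15.5 and 20.02 CPM in the inhibitor libraries. The groups did not overlap, and the lower inhibitor library was 3.70-fold above the higher control library. The mean level was 3.81 ± 0.534 CPM with the control and 17.8 ± 3.20 CPM with the inhibitor (SD, n = 2 libraries each), 4.66-fold higher, and the log2 fold change was 2.22 with an SE of 0.16. Within a group the libraries differed 1.22-fold for the control and 1.29-fold for the inhibitor, far less than the groups did. The 95% counting intervals of both inhibitor libraries, 13.5 to 17.7 and 17.9 to 22.4 CPM, did not meet, so that their difference was slightly more than counting error gives.

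MRPL57 had 67 and 69 counts in control replicates 1 and 2 and 110 and 152 counts in inhibitor replicates 1 and 2. Its level was 4.6 and 4.25 CPM in the control libraries and 7.61 and 9.69 CPM in the inhibitor libraries. Again both inhibitor libraries lay above both control libraries, here with a gap of 1.65-fold between the nearest libraries of the groups. The mean level was 4.43 ± 0.248 CPM with the control and 8.65 ± 1.47 CPM with the inhibitor (SD, n = 2 libraries each), a 1.95-fold difference and a log2 fold change of 0.97 with an SE of 0.18. The control libraries agreed within 1.08-fold and the inhibitor libraries within 1.27-fold. No counting interval of a control library, of which the highest bound was 5.84 CPM, reached those of the inhibitor libraries, of which the lowest bound was 6.26 CPM.

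NCBP2AS2 was the scarcest of the 3 genes in counts. It had 3 and 9 counts in control replicates 1 and 2 and 19 and 28 counts in inhibitor replicates 1 and 2. Its level was 0.206 and 0.554 CPM with the control and 1.31 and 1.79 CPM with the inhibitor. The groups did not overlap in these values, but the counting interval of control replicate 2, 0.254 to 1.05 CPM, met that of inhibitor replicate 1, 0.792 to 2.05 CPM. The mean level was 0.380 ± 0.246 against 1.55 ± 0.333 CPM (SD, n = 2 libraries each), 4.08-fold higher, and the log2 fold change was 1.98 with an SE of 0.51. The control libraries differed 2.69-fold, a wider spread than in the other genes.

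**Figure D1:**
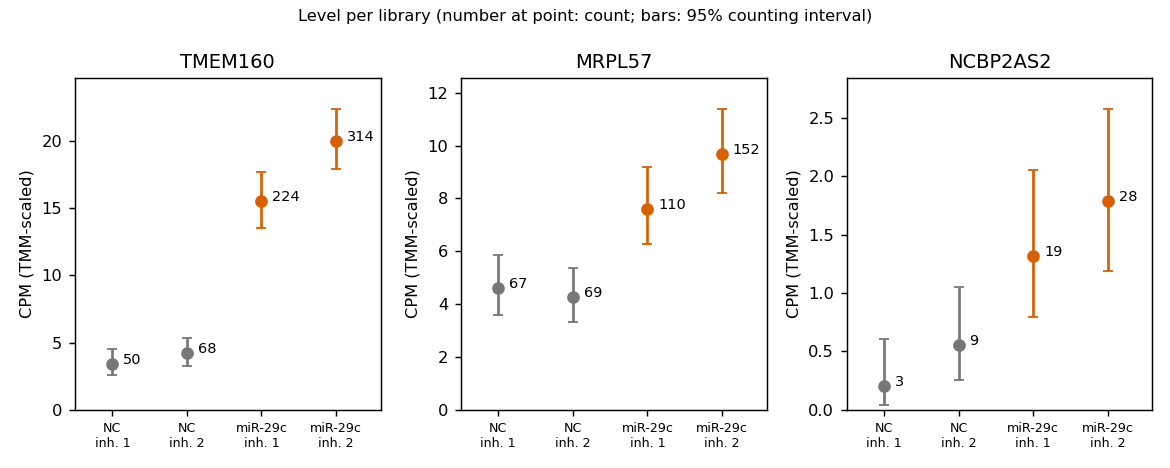
Level in CPM (vertical axis, from 0, with a scale of its own in each panel) of TMEM160, MRPL57 and NCBP2AS2 in each of the 4 libraries. Grey points are control libraries and orange points inhibitor libraries, the number beside a point is its count and the bar its 95% exact Poisson interval; in each panel both orange points lie above both grey points, and only for NCBP2AS2 do bars of the groups overlap.

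All 3 genes thus had both inhibitor libraries above both control libraries, an order that also held for 17.6% of the genes tested. As the genes were chosen from this comparison, nothing is read from their number. Comparing each inhibitor library with each control library gave folds of 3.70 to 5.83 for TMEM160, 1.65 to 2.28 for MRPL57 and 2.37 to 8.66 for NCBP2AS2. With the counts of a group pooled, the ratio of CPM was 4.66 for TMEM160, with a 95% counting interval of 3.81 to 5.74, and 1.97 for MRPL57, with an interval of 1.59 to 2.44. For NCBP2AS2, with 12 counts against 47, the pooled ratio was 4.0 and its interval ran from 2.09 to 8.29. The fold of NCBP2AS2 was known least closely. Between replicates MRPL57 varied less than TMEM160, with a pooled SD of 0.183 against 0.234 in log2 CPM. NCBP2AS2 varied most, with 0.747. With 2 libraries per group, an SE of the log2 fold change from a gene's own replicates would be the size of this SD. The fitted SEs of TMEM160 and NCBP2AS2, 0.16 and 0.51, were smaller and so understate the observed spread. That of MRPL57, 0.18, was of like size. The counting intervals leave the spread between libraries out.

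In these libraries the fold of TMEM160 was larger than that of MRPL57. The log2 fold change of TMEM160 exceeded that of MRPL57 by 1.24 with an SE of 0.24, whereas it exceeded that of NCBP2AS2 by 0.24 with an SE of 0.54. These errors combine those of the single genes as if independent, although all come from the same libraries. They also leave out part of the spread between replicates given above. The genes were chosen for their folds, so that these differences describe them and were not tested. The counts of MRPL57 are also uncertain through an overlap with ZDHHC20, given below. The ratio of TMEM160 counts to MRPL57 counts, in which the lengths of both transcripts cancel when libraries are compared, was 0.746 and 0.986 in the control libraries. It was 2.04 and 2.07 in the inhibitor libraries, so that it was close to the same value in both wells of that group. The ratio of TMEM160 to NCBP2AS2 showed no such order. It was 16.7 and 7.56 in the control libraries and 11.8 and 11.2 in the inhibitor libraries.

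Summed, the 3 genes had 120 and 146 counts in the control libraries and 353 and 494 counts in the inhibitor libraries. The sum amounted to 8.62 ± 0.533 and 28.0 ± 5.00 CPM (SD, n = 2 libraries each), and its log2 fold change was 1.70 with an SE of 0.12. Its pooled SD between replicates was larger than this SE, at 0.194 in log2 CPM. TMEM160 made up 41.7% of these counts in control replicate 1 (exact Clopper-Pearson interval at 95% from 32.7% to 51.0%) and 46.6% in control replicate 2 (38.3% to 55.0%). In inhibitor replicates 1 and 2 its share was 63.5% (58.2% to 68.5%) and 63.6% (59.1% to 67.8%). The share of MRPL57 was 55.8% and 47.3% with the control and 31.2% and 30.8% with the inhibitor. NCBP2AS2 held between 2.50% and 6.16% of the summed counts in every library.

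**Figure D2:**
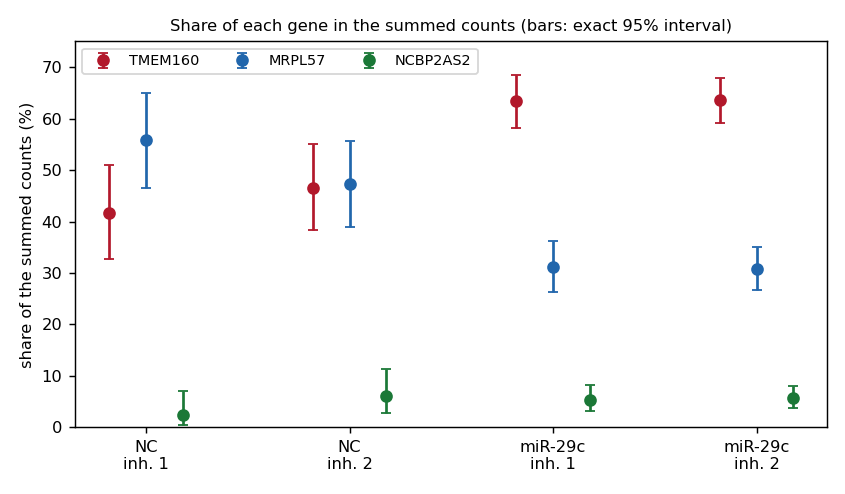
Share of TMEM160, MRPL57 and NCBP2AS2 in their summed counts (vertical axis, percent, from 0) in each of the 4 libraries, with exact 95% Clopper-Pearson intervals as bars. TMEM160 and MRPL57 have overlapping intervals in the control libraries and lie well apart, near 63.5% and 31.2%, in the inhibitor libraries, while NCBP2AS2 stays at or below 6.16%.

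Among genes with as many counts or more, differences of this size were rare. TMEM160 had 656 counts over the 4 libraries, and none of the 9352 other genes with at least as many had a larger log2 fold change. For MRPL57, with 398 counts, 5 of 10483 such genes had a larger one. These were TMEM160, SEM1, a small subunit of the proteasome lid, ZNF771, a zinc finger protein, UBE2S, a ubiquitin-conjugating enzyme that acts with the anaphase-promoting complex, and a gene without a symbol. For NCBP2AS2, with 59 counts, 2 of 13539 such genes had a larger one, TMEM160 and another gene without a symbol. The median log2 fold change of these sets of genes lay between -0.004 and -0.001. These ranks describe genes chosen for their difference and are not a test.

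**Figure D3:**
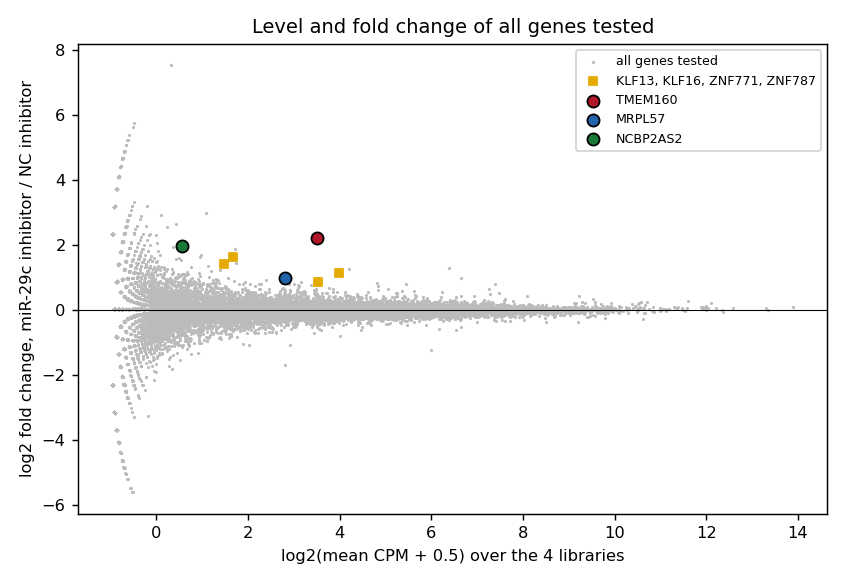
Log2 fold change between the groups (vertical axis) against log2(mean CPM + 0.5) over the 4 libraries (horizontal axis) for the 20300 genes tested, in grey. TMEM160 at 2.22, MRPL57 at 0.97 and NCBP2AS2 at 1.98 stand above the band of genes of like level, as do the 4 zinc finger genes KLF13, KLF16, ZNF771 and ZNF787, drawn as yellow squares.

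The inhibitor libraries were not equal for these genes, though their counting intervals overlapped for MRPL57 and NCBP2AS2. TMEM160, MRPL57 and NCBP2AS2 were each higher in replicate 2 than in replicate 1 of that group, by 1.29-fold, 1.27-fold and 1.36-fold. The same order held for 48.6% of the other genes with at least 10 counts in every library, and for 71.7% of the other genes called higher with the inhibitor, 129 of 180, at an adjusted p below 0.05 of edgeR's quasi-likelihood test. Of all genes tested 0.901% were called higher in this way. Without inhibitor replicate 2 the log2 fold change was 2.01 with an SE of 0.20 for TMEM160, 0.78 with an SE of 0.23 for MRPL57 and 1.74 with an SE of 0.69 for NCBP2AS2. The direction could hardly change here, since inhibitor replicate 1 also lay above both control libraries for each of these genes. As the genes were chosen by this direction, leaving out inhibitor replicate 2 shows only how far the size of the fold moved.

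The fold of NCBP2AS2, with 3 and 9 counts in the control libraries, depended most on a single library. Its log2 fold change was 1.48 with an SE of 0.59 without control replicate 1 and 2.86 with an SE of 0.77 without control replicate 2. For MRPL57 the values without each control library were 1.04 and 0.91, and for TMEM160 they were 2.09 and 2.37. The DESeq2 fit gave nearly the same folds with wider errors. Its log2 fold change and SE were 2.22 and 0.26 for TMEM160, 0.97 and 0.29 for MRPL57, and 2.02 and 0.81 for NCBP2AS2. The error thus depended on the fit more than the fold did.

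**Figure D4:**
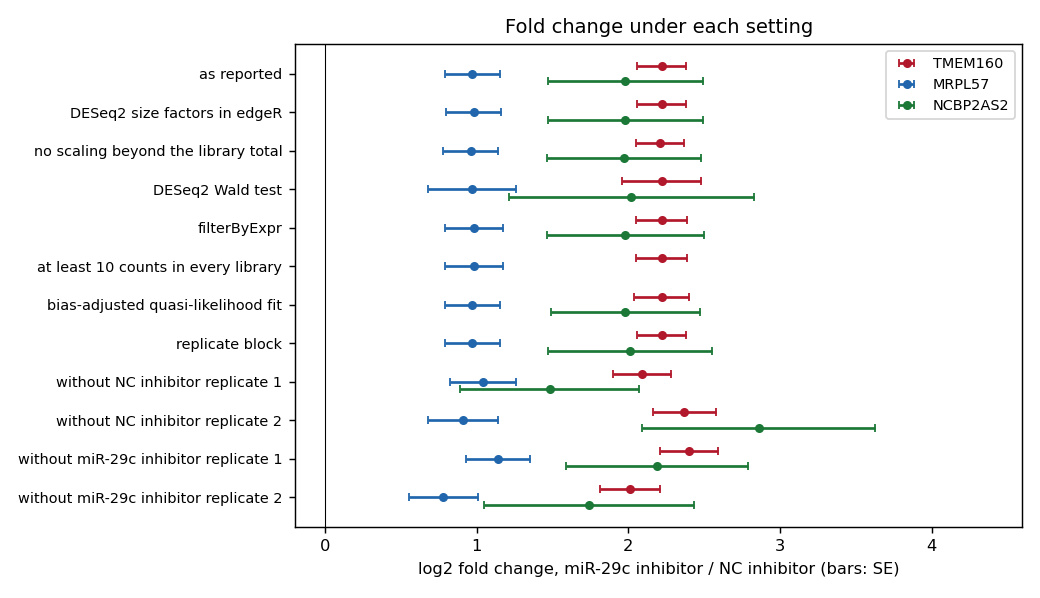
Log2 fold change (horizontal axis) with its SE as bar for TMEM160, MRPL57 and NCBP2AS2, as reported and under each alternative setting (vertical axis). All values lie above 0, those of TMEM160 between 2.01 and 2.40 and those of MRPL57 between 0.78 and 1.14; NCBP2AS2, from 1.48 to 2.86, has no value at the filter of at least 10 counts in every library, which it did not pass.

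The genes that lie next to the members were not used to choose them, and they were examined to see whether a whole stretch of a chromosome differed. The row order of the files follows the genome. The 30 named genes that could be placed on numbered chromosomes of the RefSeq gene table of assembly ARS-UCD2.0 fell into 16 unbroken runs for 16 chromosomes, and 14 of 14 successive pairs on a chromosome stood in the order of their starts. In that table TMEM160 lies on chromosome 18 between NPAS1 and ZC3H4, MRPL57 on chromosome 12 between ZDHHC20 and SKA3, and NCBP2AS2 on chromosome 1 between NCBP2 and PIGZ, counting protein-coding genes. In this assembly the span of MRPL57 overlaps that of ZDHHC20 at its end, and since the strand setting of the counting is not given in the sources used here, the counts of MRPL57 are uncertain to the extent that reads of ZDHHC20 fell into the overlap. The spans of TMEM160 and NCBP2AS2 overlap neither of their neighbours. Whether the gene models used for the counting had the same spans was not tested. The table carries no Ensembl identifiers, so that the rows themselves have no name here.

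Of the 18 rows within 3 rows of a member, none was called at an adjusted p below 0.05 of edgeR's quasi-likelihood test or of DESeq2. Over all genes tested 1.46% were called by edgeR in either direction. At an unadjusted p below 0.05 the counts were 4 of 18 with edgeR, 3 of them near TMEM160 and 1 near NCBP2AS2, and 0 of 18 with DESeq2, beside 8.89% of all genes tested with edgeR and 2.48% with DESeq2. Where such a row had at least 100 counts, its log2 fold change lay between -0.17 and 0.23 near TMEM160, between -0.22 and 0.01 near MRPL57 and between -0.05 and 0.31 near NCBP2AS2. The largest of these, 0.31 with an SE of 0.13, belongs to the row just after NCBP2AS2. With 197 and 168 counts in the control libraries against 214 and 229 counts in the inhibitor libraries, it was also higher in both of the latter. The row just before NCBP2AS2 had a log2 fold change of 0.02 with an SE of 0.08. Those on either side of MRPL57 had -0.05 with an SE of 0.05 and -0.03 with an SE of 0.08. The row just after TMEM160 had 0.21 with an SE of 0.09. With 560 and 606 against 633 and 684 counts, it too was higher in both inhibitor libraries. The other rows near TMEM160 with an unadjusted p below 0.05 in edgeR were lower, at -0.17 with an SE of 0.08 and -0.11 with an SE of 0.05. The row just before TMEM160 had only 18 counts in total.

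**Figure D5:**
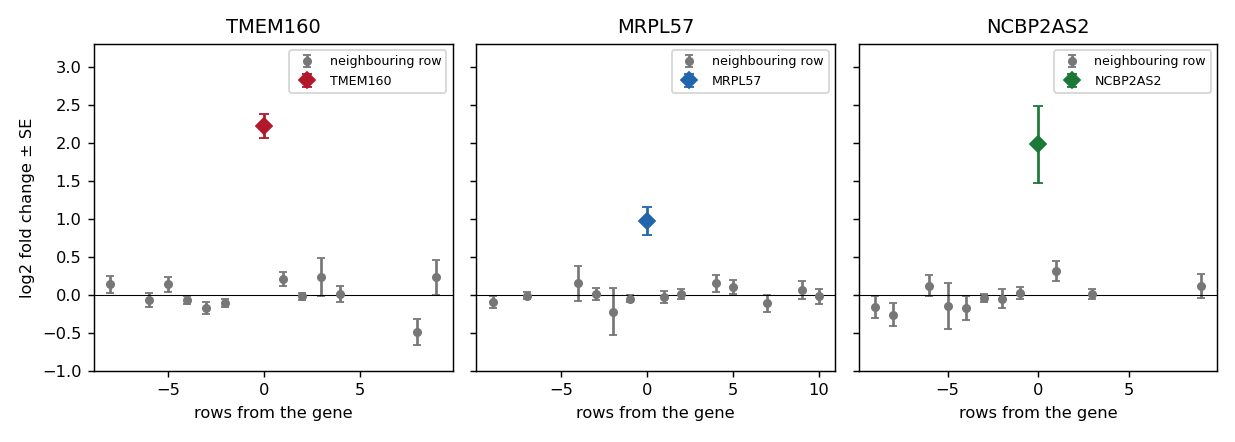
Log2 fold change with its SE (vertical axis) of TMEM160, MRPL57 and NCBP2AS2 (coloured diamonds at 0) and of the rows up to 10 places before or after them in the files (grey, horizontal axis in rows), where these had at least 100 counts, which were 12, 13 and 11 rows. The grey points lie between -0.49 and 0.31, below the diamonds at 2.22, 0.97 and 1.98.

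The genes whose profile over the 4 libraries was most like that of each member were found among the 13479 genes with a mean of at least 1 CPM. Likeness was the Euclidean distance between the values of log2(CPM + 0.5), centred per gene. Closest to MRPL57 was UBE2S, at a distance of 0.0783, with 1022 and 1054 counts in the control libraries and 1700 and 2326 counts in the inhibitor libraries. Next was C10H15orf61 at 0.0934, with 13 and 14 against 25 and 34 counts. UBE2S had both the step between groups and the higher value in inhibitor replicate 2, which a search for like profiles selects for.
KLF13, a zinc finger transcription factor of the Kruppel-like family, was the nearest gene to NCBP2AS2, at 0.152, and the second nearest to TMEM160, at 0.755. It had 15 and 26 counts in the control libraries and 49 and 75 counts in the inhibitor libraries. The nearest to TMEM160 was ENSBTAG00000050269, which has no symbol, at 0.677, with 17 and 19 against 67 and 64 counts. SFT2D3, a membrane protein of the SFT2 family, was the third nearest to NCBP2AS2 at 0.293. Between the members themselves the distance was 0.598 for MRPL57 and NCBP2AS2, 0.869 for TMEM160 and NCBP2AS2 and 1.22 for TMEM160 and MRPL57. Each had nearer genes outside the group than within it, but those were sought among 13479 genes, so that nothing is read from this. The added 0.5 CPM is of the order of the levels of NCBP2AS2 and flattens its profile, so that its distances do not follow the fold changes, by which it was nearer to TMEM160 than to MRPL57.

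Zinc finger genes of the same list of changed genes, KLF13, KLF16, ZNF771 and ZNF787, gave a scale for the size of the differences, and they too were chosen for theirs. Their log2 fold changes were 1.62 with an SE of 0.28, 1.42 with an SE of 0.30, 1.15 with an SE of 0.13 and 0.87 with an SE of 0.15. TMEM160 thus had a larger value than each of the 4, and MRPL57 lay between ZNF787 and ZNF771. Like MRPL57, ZNF787 lay below the limit on the fold used for that list. NCBP2AS2, at 1.98 with an SE of 0.51, was also above each, but its margin over KLF13 was smaller than its SE. Unlike the 3 members, KLF16, ZNF771 and ZNF787 were slightly lower in inhibitor replicate 2 than in replicate 1, at 2.87 against 3.81, 20.5 against 21.9 and 13.3 against 15.3 CPM. Their counts there were 45 against 55, 322 against 316 and 208 against 221. No counting intervals were computed for them, so that this order may be counting error. KLF13 was higher in replicate 2, at 4.78 against 3.39 CPM, as the 3 members were. These differences between sets were not tested.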

How the data were processed

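RNA-seq of MAC-T cells was analysed in 2 libraries per group. Reads had been cleaned by the authors, mapped to UMD3.1, a bovine assembly, by HISAT2, and assigned to genes by featureCounts. What they deposited are raw counts per gene. The assembly is that named by the labels; the files name none and list identifiers of a kind used in later bovine annotations, so that the assembly behind the counts is not settled here. Tool versions, strand setting and annotation release are not given in the sources used. The authors compared the groups with DESeq2.

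From these counts, edgeR 4.0.16 in R 4.3.3 (limma 3.58.1) fitted a model with the group as its term, on TMM-scaled libraries, to the 20300 genes that had any count (minimum 1), followed by the quasi-likelihood test. Adjusted p values are Benjamini-Hochberg over these genes. The SE is the size of the log2 fold change divided by the square root of F. Alternatives were DESeq2 1.42.0, its size factors in edgeR, no scaling, edgeR's filterByExpr filter on low counts, at least 10 counts in every library, a bias-adjusted quasi-likelihood fit, a replicate block, and each library left out. Depth was 14479278 to 16213226 counts per library. Replicates were not copies of a library, since the chi-square of their counts came to 3.01 and 2.57 per degree of freedom. Of these steps only the main edgeR fit was tried on simulated counts with planted fold changes, and the outcome is not given here.

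The members and lists were chosen with earlier results of these data known. Genes named are the members, the 3 genes nearest in profile to each where they have a symbol (of those without, the nearest to TMEM160 only), 4 zinc finger genes, and, chosen after their values were seen, the genes with a larger fold than MRPL57. Lists of 214 further symbols, among them proteins of the mitochondrial ribosome, the nuclear cap-binding complex, miR-29 targets and cell type markers, could not be used, since 0 of them are paired with an identifier. The labelled cell type was therefore not checked against its markers. Neighbouring rows took the place of neighbours matched by symbol, a choice made after seeing the files.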

Additional observations from a re-analysis of the deposited data

How the results depend on the processing

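The direction of TMEM160, MRPL57 and NCBP2AS2 was the same under every alternative that included them. It could hardly change, since the genes were chosen by it and both miR-29c inhibitor libraries lay above both NC inhibitor libraries. The fold of NCBP2AS2, with 3 and 9 counts in the NC inhibitor libraries, is the value that depth limits most. Leaving out single libraries gave log2 fold changes between 2.01 and 2.40 for TMEM160, 0.78 and 1.14 for MRPL57, 1.48 and 2.86 for NCBP2AS2, and 1.5 and 1.88 for their sum, where the spread of a lone library is taken from the other group. With the other alternatives it moved by less than the spread between replicates. NCBP2AS2 did not pass the filter of at least 10 counts in every library. Over all genes, edgeR called 183 higher and 114 lower genes at an adjusted p below 0.05. These counts were 44 and 2 with DESeq2 and 32 and 2 with the bias-adjusted quasi-likelihood fit. The filterByExpr filter gave 137 higher and 62 lower genes, and the filter of at least 10 counts in every library 132 and 68. With a library left out they ranged from 55 to 172 higher and from 17 to 146 lower genes, with the lowest values without miR-29c inhibitor replicate 2, and 34 lower genes without NC inhibitor replicate 1. Why the counts moved was not tested. The rows next to the members gave 0 calls under all 11 alternatives. Replicate numbers were not taken to pair the libraries, since the labels name no shared source and the deviations of replicates with the same number correlated at 0.0115. A replicate block gave 216 higher and 136 lower genes, and log2 fold changes of 2.22, 0.97 and 2.01 for TMEM160, MRPL57 and NCBP2AS2. The lists and the GC correction, alone or with the replicate block, were not run, since no sequence or symbol table could be joined to the identifiers.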
